A study of Drosophila melanogaster with 8 samples.

Results

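Genes that handle superoxide, peroxide and thiol redox state, together with the pair of proteins that switches many antioxidant genes on and off, were followed in cultured S2 cells, an embryo-derived Drosophila melanogaster line with properties of macrophages. The 9 genes chosen were Cat, Sod2, Sod3, Gclc, Gclm, cnc, Keap1, Trx-2 and Jafrac1, each taken from probe sets that the platform annotation assigns to a single gene. The annotation lists Trx-2 under its current symbol, Trx2. Jafrac1, listed in RefSeq as Prx2, had no such probe set and was dropped, which left 8 genes on 9 probe sets out of 11009 genes measured. In all 4 groups the cells first received double-stranded RNA (dsRNA), then, 72 h later, a transfection with the lipid Cellfectin, and were lysed for RNA 24 h later. There were 2 samples for each pairing of a dsRNA, scrambled or against DmSTING, with a transfection, either mock (lipid alone) or with the bacterial second messenger cyclic di-GMP (c-di-GMP). The titles and source names give these groups, whereas the genotype field contradicts both in the scrambled c-di-GMP and DmSTING RNAi mock samples. The study asked what DmSTING contributes to the c-di-GMP response.

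Superoxide dismutases turn superoxide into hydrogen peroxide, which catalase and the peroxiredoxins remove, the latter with electrons from thioredoxin. Glutathione, the other thiol reserve, is made from a first step catalysed by glutamate-cysteine ligase. The CncC form of cnc, the fly counterpart of Nrf2, pairs with the small Maf protein maf-S to activate antioxidant genes, and Keap1 binds CncC and holds it in check.

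Each probe set's log2 values are given relative to the median of its 8 samples, so differences between samples can be read, while levels, and a check that the cells express hemocyte markers, cannot. The Sting transcript, targeted by the DmSTING dsRNA, lay between -0.84 and -0.46 in the 4 samples given that dsRNA and between 0.46 and 0.83 in the 4 given the scrambled sequence. Across all genes the SD of the difference between the replicates of a group ranged from 0.119 in DmSTING RNAi mock to 0.233 in scrambled c-di-GMP, and the number of arrays limits the precision. No label says that the replicates of a group were grown apart, so a p-value here weighs a difference against a spread that may be no more than technical. In bulk RNA, fewer cells of a kind and less RNA per cell cannot be told apart.

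Of the 8 genes, Cat fell with c-di-GMP under both dsRNAs, Sod3 fell under scrambled dsRNA, and Keap1 rose when both dsRNA arms were averaged. Sod2, Trx2, Gclc, Gclm and cnc passed the test in no comparison. Under scrambled dsRNA 2 of 8 passed the limma test across all genes (adjusted p under 0.05), both lower, against 12.1% of all genes (4.14% higher and 7.93% lower). Under DmSTING dsRNA 1 of 8 passed, lower, against 7.44% of all genes (3.27% higher and 4.17% lower). For the mean of both arms, which uses the same 8 samples again, 3 of 8 passed, 1 higher and 2 lower, against 20.9% of all genes (7.65% higher and 13.3% lower). The median log2 change of the 8 genes was -0.07 under scrambled dsRNA and 0.03 under DmSTING dsRNA, beside -0.04 and -0.02 over all genes. With 8 genes, these counts are given as a description of each gene and not as a result about the group.

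**Figure D1:**
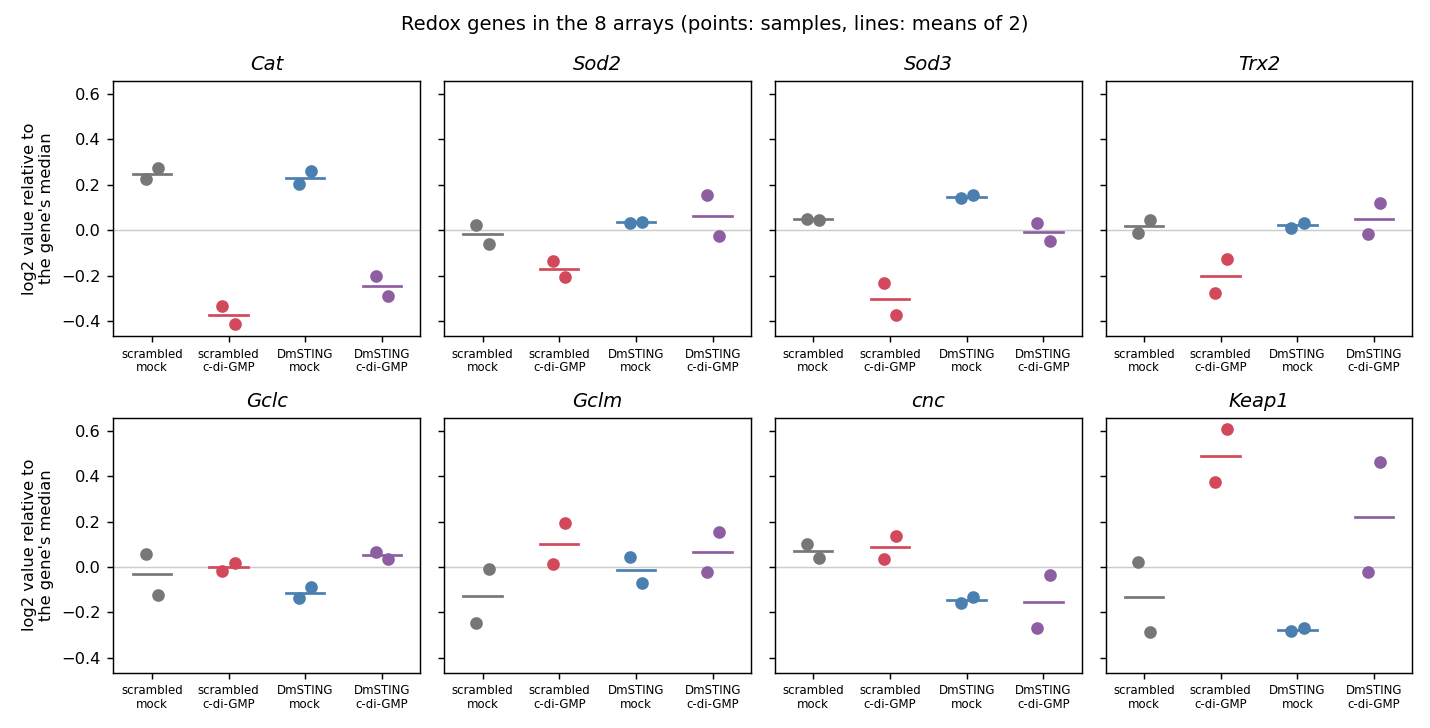
Log2 value relative to the gene's median (vertical axis) of 8 redox genes in the 4 groups (horizontal axis), with 1 point per sample and a line at the mean of 2 samples. Cat and, narrowly, Sod3 separated the 4 mock from the 4 c-di-GMP samples without overlap. The gene cnc separated the 4 scrambled from the 4 DmSTING RNAi samples, and Keap1 had its widest replicate gap, 0.485, in DmSTING RNAi with c-di-GMP.

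Cat (CG6871) encodes catalase, the peroxisomal enzyme that splits hydrogen peroxide into water and oxygen. With scrambled dsRNA, Cat read 0.22 and 0.28 (log2) after mock transfection and -0.33 and -0.41 after c-di-GMP, and with DmSTING dsRNA it read 0.20 and 0.26 after mock and -0.20 and -0.29 after c-di-GMP. All 4 c-di-GMP samples lay below all 4 mock samples, an arrangement found, with c-di-GMP lower, in 15.4% of all genes. The replicates of a group differed by at most 0.0884. Cat fell by 0.62 on the log2 scale under scrambled dsRNA (SE 0.07, 95% interval -0.79 to -0.46, limma adjusted p = 0.00492, 2 samples a group), so that 64.9% of the mock value remained if the base of the logarithm is 2. Under DmSTING dsRNA it fell by 0.48 (SE 0.07, interval -0.64 to -0.31, limma adjusted p = 0.0121), leaving 71.8%. The fall in either arm was larger in size than the change of over 95% of genes, at the 97.2 and 95.8 percentile. The arms differed by 0.15 (DmSTING RNAi minus scrambled, interval -0.09 to 0.38, limma adjusted p = 0.997), so these data allow a fall smaller by up to 0.38 or larger by up to 0.09 in DmSTING RNAi. The call under scrambled dsRNA held in 15 of 15 alternative settings. That under DmSTING dsRNA was lost when either mock sample of that arm, or its c-di-GMP replicate 2, was left out. In these settings 1 sample stands for a group. The log2 change was then -0.51 without mock replicate 1, -0.45 without mock replicate 2 and -0.43 without c-di-GMP replicate 2.

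Of the superoxide dismutases, Sod3 passed the test and Sod2 did not, and the genes were not tested against each other. Sod3 (CG9027), the secreted copper-zinc form, read 0.050 and 0.047 (log2) after mock transfection and -0.23 and -0.37 after c-di-GMP when the dsRNA was scrambled, and 0.14 and 0.15 after mock and 0.033 and -0.047 after c-di-GMP when it targeted DmSTING. The scrambled c-di-GMP samples were the lowest of the 8, and in each arm both c-di-GMP samples lay below both mock samples. Over both arms all 4 c-di-GMP samples lay below all 4 mock samples, narrowly, with 0.033 as the highest c-di-GMP and 0.047 as the lowest mock value. That arrangement, with c-di-GMP lower, was found in 15.4% of all genes. An order without overlap within an arm, in either direction, held for 6 of the 8 genes under scrambled and 4 under DmSTING dsRNA. It does not set a gene apart, and its share over all genes is not given here. Sod3 fell by 0.35 under scrambled dsRNA (SE 0.07, interval -0.52 to -0.18, limma adjusted p = 0.0269). Under DmSTING dsRNA the change was -0.15 (interval -0.33 to 0.02, limma adjusted p = 0.29), and the difference between the arms, 0.20 (interval -0.05 to 0.44, limma adjusted p = 0.988), did not pass the test. The mean over both arms fell by 0.25 (SE 0.05, limma adjusted p = 0.015).

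Sod3 is read by a pair of probe sets that disagree in the DmSTING RNAi arm. The first, 1622906_at, was at 0.18 and 0.21 in DmSTING RNAi mock and at -0.099 and -0.092 in DmSTING RNAi c-di-GMP, a change of -0.29 (limma adjusted p = 0.0554 over probe sets). The second, 1636961_a_at, was at 0.11 and 0.10 and then at 0.17 and -0.0024, a change of -0.02 (limma adjusted p = 0.939). Under scrambled dsRNA the first fell by 0.42 (limma adjusted p = 0.0135), and the second had a change of -0.28 (limma adjusted p = 0.113). Tested singly under that dsRNA, only the first passed, and the probe sets were not tested against each other. The call for Sod3 under scrambled dsRNA was made on their mean. It was lost in 8 of 15 alternative settings (adjusted p over all 15 from 0.0135 to 0.118). Among these, the adjusted p was 0.103 and 0.112 when a mock sample of the scrambled arm was left out, 0.0673 without c-di-GMP replicate 2 of that arm, and 0.0689 when either mock sample of the DmSTING RNAi arm was. The average fall of Sod3 was lost in 4 of 14 settings, with adjusted p = 0.0643 and 0.0706 without either DmSTING mock sample and 0.0505 without c-di-GMP replicate 2 of the DmSTING RNAi arm.

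Sod2 (CG8905) is the manganese dismutase of mitochondria. Under scrambled dsRNA its log2 values were 0.024 and -0.059 with mock and -0.13 and -0.21 with c-di-GMP, and under DmSTING dsRNA 0.032 and 0.037 with mock and 0.15 and -0.024 with c-di-GMP. The scrambled c-di-GMP samples were again the lowest, and in the DmSTING RNAi arm the groups overlapped. The change was -0.15 under scrambled dsRNA (interval -0.35 to 0.04, limma adjusted p = 0.269) and 0.03 under DmSTING dsRNA (interval -0.16 to 0.22, limma adjusted p = 0.889).

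Trx2 (CG31884) is the cytosolic thioredoxin that hands electrons to peroxiredoxins. Scrambled dsRNA gave log2 values of -0.012 and 0.046 with mock and -0.27 and -0.13 with c-di-GMP, and DmSTING dsRNA gave 0.012 and 0.033 with mock and -0.017 and 0.12 with c-di-GMP. As with Cat and both dismutases, the scrambled c-di-GMP samples were the lowest of the 8, an order whose share over all genes is not given here. The change was -0.22 under scrambled dsRNA (interval -0.41 to -0.02, limma adjusted p = 0.134) and 0.03 under DmSTING dsRNA (interval -0.16 to 0.22, limma adjusted p = 0.894). Among the 8 genes Trx2 had the largest difference between the arms, 0.25 (interval -0.03 to 0.52, limma adjusted p = 0.988), which did not pass the test.

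Keap1 (CG3962), the inhibitor of CncC, rose with c-di-GMP when the arms were averaged. With scrambled dsRNA, Keap1 read 0.020 and -0.29 (log2) after mock and 0.37 and 0.61 after c-di-GMP, and with DmSTING dsRNA it read -0.28 and -0.27 after mock and -0.020 and 0.46 after c-di-GMP. Within each arm both c-di-GMP samples exceeded both mock samples, but over the arms the groups touched, because DmSTING RNAi c-di-GMP replicate 1 lay just below scrambled mock replicate 1. The change was 0.62 under scrambled dsRNA (SE 0.17, interval 0.22 to 1.03, limma adjusted p = 0.0604) and 0.50 under DmSTING dsRNA (SE 0.17, interval 0.09 to 0.91, limma adjusted p = 0.147), neither past the threshold. Averaged over the arms Keap1 rose by 0.56 (SE 0.12, interval 0.27 to 0.85, 1.48-fold if the base is 2, limma adjusted p = 0.0178), a change whose size differed from that of Cat, 0.55, by less than its SE. The arms differed by -0.12 (interval -0.70 to 0.45, limma adjusted p = 0.997). The average call was lost without scrambled mock replicate 2 (0.48, adjusted p = 0.0662) and without either DmSTING RNAi mock sample (adjusted p = 0.0647 and 0.0644). The call under scrambled dsRNA was gained when either c-di-GMP sample of the DmSTING RNAi arm was left out (adjusted p = 0.0339 in both cases), where the log2 change is the same and only the estimate of spread differs.

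In the DmSTING RNAi arm the size of the Keap1 change depended on which c-di-GMP sample was used. It was 0.74 without replicate 1 and 0.26 without replicate 2, in each case from the 1 remaining c-di-GMP sample of the arm. No other of the 8 genes had replicates so far apart in any group.

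**Figure D2:**
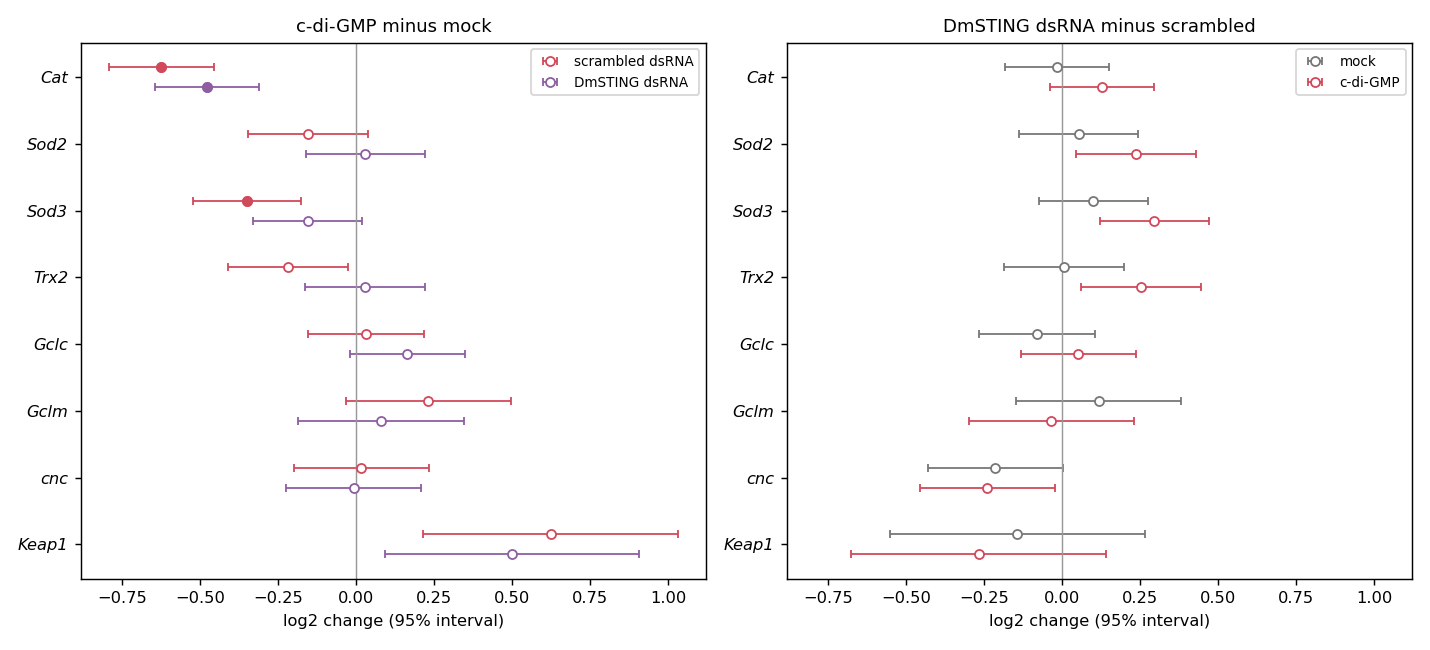
Log2 changes with 95% intervals (horizontal axis) of the 8 genes (vertical axis), for c-di-GMP minus mock under each dsRNA on the left and for DmSTING dsRNA minus scrambled under each transfection on the right, with filled points where the limma adjusted p was under 0.05. Filled points appear for Cat under both dsRNAs and for Sod3 under scrambled dsRNA, and no knockdown effect is filled.

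The transcript of cnc (CG43286) did not pass the test for c-di-GMP in either arm, with changes of 0.02 under scrambled dsRNA (interval -0.20 to 0.23, limma adjusted p = 0.926) and -0.01 under DmSTING dsRNA (interval -0.22 to 0.21, limma adjusted p = 0.979). With scrambled dsRNA, cnc read 0.10 and 0.040 (log2) after mock and 0.036 and 0.14 after c-di-GMP, and with DmSTING dsRNA it read -0.16 and -0.13 after mock and -0.27 and -0.036 after c-di-GMP. All 4 samples given DmSTING dsRNA therefore lay below all 4 given the scrambled sequence, an arrangement found, in that direction, in 1.63% of all genes. The average difference was -0.23 (DmSTING RNAi minus scrambled, SE 0.07, interval -0.38 to -0.07), which did not pass the limma test (adjusted p = 0.341, and from 0.257 to 0.808 over 14 alternative settings). The probe set of cnc, like those of Keap1 and Trx2, carries the suffix _s_at. On this type of array it marks probes shared by more than 1 transcript, which can belong to different genes. Whether the probe set of cnc separates the CncC form, which has the antioxidant role, from other products of the gene was not checked.

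The glutamate-cysteine ligase genes showed no change past the threshold. Gclc (CG2259), the catalytic subunit, read 0.058 and -0.12 (log2) with mock and -0.016 and 0.016 with c-di-GMP under scrambled dsRNA, and -0.14 and -0.087 with mock and 0.065 and 0.037 with c-di-GMP under DmSTING dsRNA. Its values spanned 0.204 over the 8 samples, the narrowest span of the 8 genes. Its change was 0.03 under scrambled dsRNA (interval -0.15 to 0.22, limma adjusted p = 0.828) and 0.16 under DmSTING dsRNA, where the groups did not overlap (interval -0.02 to 0.35, limma adjusted p = 0.29). Gclm (CG4919), the modifier subunit, read -0.25 and -0.011 (log2) with mock and 0.011 and 0.19 with c-di-GMP under scrambled dsRNA, and 0.042 and -0.069 with mock and -0.021 and 0.15 with c-di-GMP under DmSTING dsRNA. Its changes were 0.23 (interval -0.03 to 0.50, limma adjusted p = 0.232) and 0.08 (interval -0.19 to 0.35, limma adjusted p = 0.766), and its replicates differed by up to 0.238. For both subunits the intervals leave room for rises of at least 0.22 in each arm.

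Knockdown of DmSTING changed none of the 8 genes past the threshold. Under mock transfection 0 of 8 passed the limma test, against 0.00908% of all genes, which is 1 gene, Sting, and 0 of 8 had an unadjusted p under 0.05, against 3.22% of all genes. Under c-di-GMP 0 of 8 passed (0.00908% of all genes), while 4 of 8 had an unadjusted p under 0.05, against 13.7% of all genes. These were Sod3 at 0.30 (adjusted p = 0.281), Trx2 at 0.25 (adjusted p = 0.31), Sod2 at 0.24 (adjusted p = 0.32) and cnc at -0.24 (adjusted p = 0.34). Sod3, Trx2, Sod2, Cat and Gclc were higher in both DmSTING RNAi c-di-GMP samples than in both scrambled c-di-GMP samples, and cnc was lower. With 2 samples a side such an order can easily arise without a difference, and its share over all genes is not given here. This comparison shares the scrambled c-di-GMP samples with the c-di-GMP response under scrambled dsRNA, so the low values there enter both. The average knockdown effect passed for 0 of 8 (0.00908% of all genes), with 3 of 8 at an unadjusted p under 0.05 against 12.5% of all genes. These were Sod3 at 0.20 (limma adjusted p = 0.341), cnc at -0.23 (adjusted p = 0.341) and Sod2 at 0.14 (adjusted p = 0.385). For the difference between the arms, limma called 0 of 8 and 0% of all genes, and 0 of 8 had an unadjusted p under 0.05, beside 4.91% of all genes.

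By a rule that took the gene with the largest average c-di-GMP effect, Keap1 was set against all other genes over the 8 samples. Its lead over Cat was narrow and turned when certain samples were left out, with 0.48 for Keap1 and -0.54 for Cat without scrambled mock replicate 2, 0.50 and -0.53 without replicate 2 of scrambled c-di-GMP, 0.56 and -0.57 without replicate 1 of DmSTING RNAi mock, and 0.44 and -0.53 without replicate 2 of DmSTING RNAi c-di-GMP. Nazo, known as an antiviral gene, was the most similar (Pearson r = 0.986). With scrambled dsRNA, Nazo read -0.083 and -0.30 (log2) after mock and 0.72 and 0.95 after c-di-GMP, and with DmSTING dsRNA it read -0.29 and -0.30 after mock and 0.083 and 0.68 after c-di-GMP. As for Keap1, scrambled mock replicate 1 lay above the other mock samples, and DmSTING RNAi c-di-GMP replicate 1 lay well below the other c-di-GMP samples. Next came Ufd4, a ubiquitin ligase (r = 0.977), eIF4G2 (r = 0.976), c11.1 and LeuRS-m, the mitochondrial leucyl-tRNA synthetase (r = 0.975 for both). The correlations are a description over 8 samples of 4 groups, which all genes share. Cat and Sod3 stood at the other end, with r of -0.90 and -0.88 against Keap1.

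**Figure D3:**
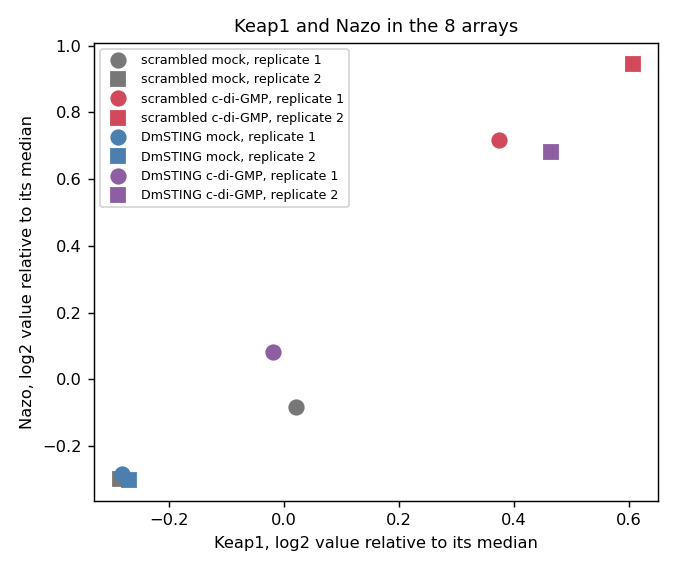
Log2 values of Nazo (vertical axis) against those of Keap1 (horizontal axis), each relative to its own median, with 1 point per sample, colour for the group and shape for the replicate number. Of the mock samples 3 lie together at the lower left, replicate 1 of scrambled mock and replicate 1 of DmSTING with c-di-GMP lie in the middle, and the other c-di-GMP samples at the upper right.

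Other genes of peroxide and thiol metabolism were read from a list of 39, of which 30 had a single-gene probe set. Under scrambled dsRNA 6 of 30 passed the test, all lower, beside 7.93% of all genes, and under DmSTING dsRNA 1 was higher and 3 lower, beside 3.27% and 4.17% of all genes. For the average of the arms 1 was higher and 7 lower, beside 7.65% and 13.3%, so that 26.7% of the list passed against 20.9% of all genes. Their median change was -0.06 under scrambled and 0.00 under DmSTING dsRNA. Irc, the immune-regulated catalase, fell by 0.44 under scrambled dsRNA (SE 0.08, limma adjusted p = 0.0176) and by 0.44 under DmSTING dsRNA (SE 0.08, limma adjusted p = 0.0225). All 4 of its c-di-GMP samples, from -0.27 to -0.16, lay below its 4 mock samples, from 0.16 to 0.30. Both measured catalases thus fell in both arms.

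Of the peroxiredoxins, 3 of 6 were measured. Prx6c fell by 1.06 under scrambled dsRNA (SE 0.18, limma adjusted p = 0.0137) and by 0.91 under DmSTING dsRNA (SE 0.18, limma adjusted p = 0.0256), from mock values of 0.23 to 0.48 to c-di-GMP values of -0.89 to -0.23. Its replicates in DmSTING RNAi c-di-GMP were far apart, at -0.23 and -0.81. Prx6c has near-identical neighbours, and another probe set of the array is shared between Prx6b, CG12896 and Prx6c, so its value may include theirs. Prx6a fell by 0.34 under scrambled dsRNA (SE 0.07, limma adjusted p = 0.0229) and stood at -0.06 under DmSTING dsRNA (adjusted p = 0.668), and the difference between the arms did not pass (0.27, limma adjusted p = 0.988). Prx3, the mitochondrial peroxiredoxin, was at -0.0045 and 0.19, neither past the threshold.

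Among the partners and regulators of cnc and Keap1, maf-S, the dimer partner of CncC, fell by 0.45 under scrambled dsRNA (SE 0.08, limma adjusted p = 0.0166) and by 0.38 under DmSTING dsRNA (SE 0.08, limma adjusted p = 0.0355). Its mock values ran from 0.11 to 0.28 and its c-di-GMP values from -0.26 to -0.11, without overlap. Sesn, a stress-induced sestrin, fell by 0.31 under scrambled dsRNA (SE 0.07, limma adjusted p = 0.0385) and was at -0.23 under DmSTING dsRNA (adjusted p = 0.129). Its average change over the arms was -0.27 (limma adjusted p = 0.012), and the difference between the arms did not pass (0.09, limma adjusted p = 0.997). Cul3, the cullin that works with Keap1, ref(2)P, the fly p62, and GstD1, a glutathione transferase widely used as a CncC reporter gene, lay between -0.03 and 0.13 in both arms, none past the threshold. Of the 8 genes of this list 2 passed under scrambled and 1 under DmSTING dsRNA, all lower, beside 7.93% and 4.17% of all genes lower. These counts are too small to set the list apart.

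Of 10 thioredoxin and glutathione enzymes, MsrA, a methionine sulfoxide reductase, fell by 0.78 under scrambled dsRNA (SE 0.18, limma adjusted p = 0.0338). Its scrambled mock replicates were far apart, at 0.53 and -0.0037, and the call was lost under quantile normalization (limma adjusted p = 0.0693). Grx1t, a glutaredoxin, rose by 0.49 under DmSTING dsRNA (SE 0.09, limma adjusted p = 0.0217). MsrA was at -0.09 under DmSTING dsRNA (adjusted p = 0.84) and Grx1t at 0.27 under scrambled dsRNA (adjusted p = 0.101). The difference between the arms did not pass for MsrA (0.69, limma adjusted p = 0.988) or Grx1t (0.22, limma adjusted p = 0.988). Averaged over the arms both passed, MsrA at -0.43 (limma adjusted p = 0.0492) and Grx1t at 0.38 (limma adjusted p = 0.00655). The thioredoxin reductases Trxr1, at 0.00 and 0.03, and Trxr2, at -0.13 and 0.08, did not pass. The counts of this wider list varied with the samples used. Under scrambled dsRNA 1 to 7 of 30 passed over the alternative settings, with 2 without either scrambled mock sample and 3 without either DmSTING RNAi mock sample. Under DmSTING dsRNA 0 passed when a mock sample of that arm or its c-di-GMP replicate 2 was left out, and 1 when its c-di-GMP replicate 1 was.

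**Figure D4:**
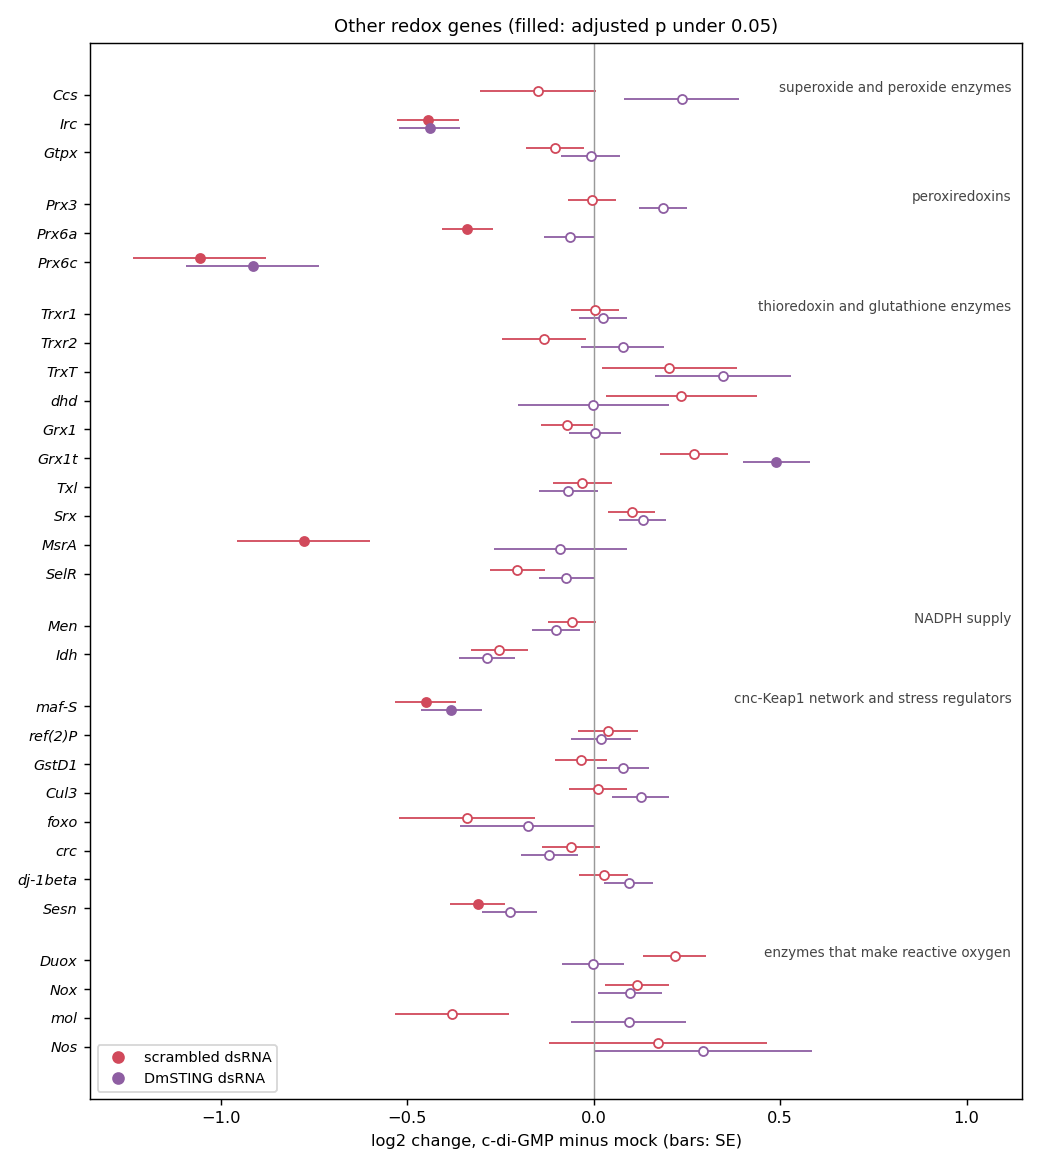
Log2 change of c-di-GMP minus mock (horizontal axis, bars are SE) of 30 other redox genes (vertical axis) by functional list, under scrambled and DmSTING dsRNA, with filled points where the limma adjusted p was under 0.05. Irc, Prx6c and maf-S are filled and lower under both dsRNAs, whereas Prx6a, MsrA and Sesn are filled under scrambled dsRNA and Grx1t under DmSTING dsRNA.

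Some markers of hemocyte kinds also fell with c-di-GMP. Of 9 measured plasmatocyte markers 4 fell under scrambled dsRNA, where 7.93% of all genes fell. Under DmSTING dsRNA 1 fell, beside 4.17% of all genes, a count too small to set the list apart. The mean of the 9 lay between 0.06 and 0.12 in the mock samples, at -0.33 and -0.20 in scrambled c-di-GMP and at -0.12 and -0.14 in DmSTING RNAi c-di-GMP. Of 5 lamellocyte markers 2 fell under scrambled and 0 under DmSTING dsRNA (7.93% and 4.17% of all genes), with means from 0.08 to 0.11 in mock samples and from -0.29 to -0.03 in c-di-GMP samples. For the average of the arms, 5 of 9 plasmatocyte and 3 of 5 lamellocyte markers passed, all lower, beside 13.3% of all genes lower. Of 3 crystal cell markers 0 passed in either arm or on average. Which of them are near background cannot be read from centred values, and their part in the falls of Cat and Sod3 was not tested.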

How the data were processed

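The deposited table holds log2 values of 16718 probe sets in 8 samples. Per the labels' protocols, total RNA was biotinylated with the Affymetrix 3' IVT Express kit and hybridised to arrays. The sources used here do not give summarization, scaling, filters, software or genome build. All 16718 row medians lay within 1e-06 of 0, so the deposited log2 values are relative to the probe set's median. Base 2 is an assumption, since no source states it.

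Probe sets with 1 gene symbol (12339) were named from the platform annotation and checked through Entrez ID against RefSeq, 74 IDs being absent there. Probe sets of a gene were averaged, giving 11009 genes. These were fitted with 4 group means and 4 residual degrees of freedom by lmFit and eBayes of limma 3.58.1 (R 4.3.3) for 7 contrasts, with Benjamini-Hochberg adjustment over all genes and a threshold of 0.05. The fit was tested on simulated data with independent normal noise, which cannot show whether the replicates here were grown apart. Errors are the model's SE, and intervals cover 95%. Column medians lay between -0.0225 and 0.00793.

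The genes and lists were chosen with earlier results of these data known. All 8 measured genes are named, and from each other redox list up to 4 called genes per contrast with the largest change, or else the gene of smallest p; others are named as list members of known role. Alternatives were quantile normalization, subtraction of column medians, single probe sets, robust empirical Bayes, only the groups compared, a replicate block and leaving out each sample. A planned promoter motif search was not done, and no sequence is shown.

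Replicate numbers were not taken to pair samples: the correlations of replicate deviations between groups ran from 0.00926 to 0.289.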

Additional observations from a re-analysis of the deposited data

How the results depend on the processing

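The number of the 8 genes called for c-di-GMP under scrambled dsRNA, 2, became 1 (Cat) under quantile normalization, with the largest p of a gene's probe sets and with only the groups compared, and ran from 1 to 3 when a sample was left out. Under DmSTING dsRNA the count of 1 ran from 0 to 1, and for the average of both arms the count of 3 ran from 1 to 3. Knockdown contrasts and the difference between the arms called 0 of 8 in each setting, though over all genes, without DmSTING RNAi c-di-GMP replicate 2, 12 were called for the difference and 34 for knockdown under c-di-GMP. Over all genes, 1329 calls under scrambled dsRNA became 141 with only the groups compared, from fewer samples, and ran from 221 to 1385 when a sample was left out, beside 0 to 1026 of 819 under DmSTING dsRNA and 1161 to 2576 of 2303 for the average. Of the 30 other redox genes, the 6 calls under scrambled dsRNA became 3 under quantile normalization and 1 with only the groups compared. Irc, Prx6c and maf-S kept the call under quantile normalization, and Prx6a, MsrA and Sesn lost it. Where a loss has no stated reason, the cause was not tested.

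With the replicate block, 1385 genes were called under scrambled dsRNA, 785 under DmSTING dsRNA and 2378 for the average, and no call of the 8 genes changed. The numbers are no pairing by the labels.

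The changes that turned sign were not called. Under quantile normalization these were cnc in the DmSTING arm (0.041) and between arms (0.029), Keap1 between arms (0.00588) and Cat for knockdown under mock (0.012). When a sample was left out, cnc ran from -0.034 to 0.068 under scrambled dsRNA, from -0.13 to 0.11 under DmSTING dsRNA, from -0.054 to 0.063 on average and from -0.14 to 0.093 between arms. Gclc ran from -0.058 to 0.12 under scrambled dsRNA. In the DmSTING arm Sod2 ran from -0.059 to 0.12, Gclm from -0.0072 to 0.17 and Trx2 from -0.040 to 0.097. Keap1 ran from -0.37 to 0.12 between arms. For knockdown under mock, Cat ran from -0.048 to 0.012, Gclc from -0.17 to 0.0087, Gclm from -0.0024 to 0.24, Keap1 from -0.30 to 0.0096 and Trx2 from -0.023 to 0.034. Under c-di-GMP, Gclm ran from -0.13 to 0.056. For the average knockdown effect, Gclc ran from -0.060 to 0.030 and Gclm from -0.019 to 0.10.

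Signal over background cannot be read from these values, so dim probe sets could not be left out. With 2 samples a group the 95% interval of Gclm reached 0.50 under scrambled dsRNA, so a rise of that size is within the error of this gene.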

Other observations

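Genes that make reactive oxygen, and genes that supply NADPH for its removal, gave few calls. Of 4 measured enzymes and factors that make reactive oxygen or nitric oxide (Duox, Nox, mol and Nos), 0 passed the limma test in either arm, and 2 had an unadjusted p under 0.05 under scrambled dsRNA and 0 under DmSTING dsRNA, beside 28.4% and 21.7% of all genes, counts too small to set the list apart. Duox, the dual oxidase, was at a log2 change of 0.22 under scrambled dsRNA (SE 0.08, limma adjusted p = 0.141) and at -0.00095 under DmSTING dsRNA, and mol, its maturation factor, at -0.38 (SE 0.15, adjusted p = 0.159) and 0.09. Idh, an NADPH-producing isocitrate dehydrogenase, was at -0.25 and -0.29 in the arms (limma adjusted p = 0.0735 and 0.0684) and fell by 0.27 on average (SE 0.05, adjusted p = 0.0125). Men, the malic enzyme, did not pass (average -0.08, adjusted p = 0.277).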
